A study of Mus musculus with 8 samples.

Results

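The genes described here encode the AP-1 transcription factors Fos, Fosb, Fosl2, Jun, Junb and Jund, the related factor Atf3, and the zinc finger factors Egr1 and Egr2. They were chosen by name, with earlier results of these data known, and 9 of the 10 genes named were analysed among 20275 gene symbols. Fosl1 was not analysed here. Single cells of mouse colon tumors had been index-sorted into 384-well plates and their transcripts counted by SORT-seq, a method that tags the 3′ end of each transcript with a unique molecular identifier (UMI). There were 8 plates, a plate per mouse, from 4 FibCtrl mice without the Cre transgene and 4 FibΔZeb1 mice that carried it and were deleted for Zeb1 in fibroblasts. Both groups received a tamoxifen diet, and the methods of the study describe floxed Zeb1 alleles in both and tumors grown from transplanted AKP organoids in the cecum. The sample labels name the transgene Col1a1Cre-ERT2 whereas the methods name Col1a2-CreERT2, so the promoter is given here only as one of a type I collagen gene, which is active in fibroblasts and some other mesenchymal cells. Ages were not given in the sources used here.

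AP-1 is a dimer in which a Jun protein pairs with another Jun protein, a Fos protein or a factor of the ATF family, and the pair binds short palindromic DNA motifs. Many of these genes are immediate early genes, transcribed within minutes of a stimulus from factors already present in the cell, and their transcripts are short-lived. In the gut and its tumors they are known as targets of MAP kinase, cytokine and stress signaling. Enzymatic dissociation of tissue is itself known to induce them. All plates had gone through such a dissociation, so levels in the tumor and levels gained during dissociation cannot be told apart.

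Of 3072 wells, 1831 were kept, and 1275 of these fell into 6 main classes named from fixed marker genes after clustering. The fibroblast-like class held 152 wells, the B cell-like class 143, the T cell-like class 147, the macrophage-like class 172, the neutrophil-like class 256 and the epithelial-like class 405, and each is called below by the cell type alone. The members and related early response genes were kept out of the genes used for clustering and out of the markers. On every plate tested the classes held their defining transcripts, such as Col1a1 at 18134 to 19708 counts per 1000000 transcripts (CPM) in fibroblast wells and Epcam at 793 to 1114 in epithelial wells, except that Cd8a was at 0 on 4 of 7 plates with T cells. When each well was instead assigned by the sum of its own markers, 754 of the 1275 wells kept their class. Plates differed in depth, from 981881 transcripts on FibCtrl replicate 2 to 5905188 on FibCtrl replicate 1, and the median well held 25924 transcripts in the epithelial class, 17682 in the fibroblast class, 8504 in macrophages and 1889 in neutrophils. All plates use the same 384 well positions as barcodes, so shared barcodes carry no information here.

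Levels are CPM, the counts of a gene in the wells of a class on a plate over all nuclear gene transcripts in these wells, scaled to 1000000. Each transcript is counted once at its 3′ end, so levels do not scale with gene length. Other differences in capture between genes were not measured, so comparisons between genes are approximate. Only plates with at least 10 wells of a class were used, which left 5 plates for fibroblasts, 8 for epithelial wells, 6 for macrophages, 7 each for neutrophils and T cells and 3 for B cells. Per the labels a replicate was a mouse, and values are means ± SD over plates.

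Zeb1, the targeted gene, was examined in fibroblast wells first. It measured 91.9 and 83.4 CPM in FibCtrl replicates 1 and 4, and 43.5, 47.9 and 27.8 in FibΔZeb1 replicates 1, 3 and 4. The plates with under 10 fibroblast wells did not follow this order, since FibCtrl replicates 2 and 3 had 0 Zeb1 transcripts (exact Poisson 95% upper bounds of 45.5 and 50.5) and FibΔZeb1 replicate 2 had 44.0. The 3′ tag does not read the excised part of the gene, so these values do not measure recombination.

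To show how the promoters of members with different patterns compare, the 250 bases before the start of transcription are given for Fos and Junb from RefSeq on build GRCm38.p6, for Fos at chr12:85473640-85473889 on the plus strand and for Junb at chr8:84978749-84978998 on the minus strand, both read 5′ to 3′. Capitals mark the letters TGACG, the core of the cyclic AMP response element.
Fos: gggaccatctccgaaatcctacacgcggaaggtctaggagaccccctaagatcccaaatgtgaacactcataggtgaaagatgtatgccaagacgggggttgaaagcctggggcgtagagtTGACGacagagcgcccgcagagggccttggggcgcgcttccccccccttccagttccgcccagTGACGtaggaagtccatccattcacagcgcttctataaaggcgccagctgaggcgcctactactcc
Junb: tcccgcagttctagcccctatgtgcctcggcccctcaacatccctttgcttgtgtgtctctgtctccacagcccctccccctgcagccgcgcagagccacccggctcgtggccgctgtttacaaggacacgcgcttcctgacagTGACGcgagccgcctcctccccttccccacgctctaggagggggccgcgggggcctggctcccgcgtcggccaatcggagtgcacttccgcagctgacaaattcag
The Fos window holds TGACG at 129 to 125 and at 66 to 62 bases before the start, and the Junb window at 106 to 102. RefSeq windows were found for 8 of the 9 members, all but Egr1. Those of Fos, Fosb, Junb and Atf3 and some of the 5 windows of Egr2 held TGACG on 1 strand or the other. Among all 32851 windows of this length the share was 17.8%, with both strands searched. The full response element TGACGTCA, which contains these letters, occurred in 1.55% of all windows, and the AP-1 motif TGACTCA in 4.46%. Neither was in a member's window. The CArG box, the motif of serum response factor, occurred in 1.47% of windows and, among the members, only in windows of Egr2, though not in all 5. Sites further than 250 bases from the start were not searched, and Egr1 was not covered. These matches describe letters only.

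Fos, the prototype of its subfamily and an obligate partner of Jun proteins, was highest in macrophages and fibroblasts. Fibroblast wells had 3264 and 2206 CPM on FibCtrl replicates 1 and 4, and 1941, 1511 and 1338 on FibΔZeb1 replicates 1, 3 and 4. Macrophages ranged from 2050 to 3596 over 6 plates (median 2828), epithelial wells from 902.5 to 2442 over 8 (median 1629) and neutrophils from 647 to 2436 over 7 (median 1282). The plates of these 4 classes overlapped. Lymphocytes were lower, with a mean of 535 ± 314 in B cells and 462 ± 219.7 in T cells, and the highest T cell plate, at 894, lay below the lowest epithelial plate. In the order of the means, the steps from macrophages to fibroblasts and from neutrophils to B cells were larger than the larger SD of the pair, whereas fibroblasts, epithelial wells and neutrophils were not separated by this measure.

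Fosb, a second Fos protein that also exists as a truncated isoform, was highest in fibroblasts (1077 ± 357) and macrophages (1018 ± 312). The fibroblast plates measured 1589 and 1253 in FibCtrl and 974, 653 and 918 in FibΔZeb1. Neutrophils, at 311 ± 194, and T cells, at 284 ± 164, were the lowest classes, and B cells were intermediate with 607, 538 and 625 on their 3 plates. Fosb and Fos therefore differed in their order, since neutrophils had more Fos than B cells and less Fosb.

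Fosl2, which encodes Fra-2, a Fos protein without the strong transactivation domain of Fos, had a different profile. Its means were 847 ± 265 in neutrophils, 494 ± 196 in macrophages and 452 ± 235 in T cells, against 149 ± 16.4 in fibroblasts, 130 ± 26.9 in epithelial wells and 59.2 ± 17.2 in B cells. The fibroblast plates, at 165, 163, 154, 131 and 132, varied less than those of any other member in this class. Every neutrophil plate (534 to 1298) lay above every fibroblast and epithelial plate. The step from epithelial wells to B cells had no overlap between plates.

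Among the Jun genes, which encode the partners that Fos proteins need to bind DNA, Jun itself was highest on average in fibroblasts and epithelial wells. Fibroblast wells had 1974 and 1428 CPM in FibCtrl and 1174, 635 and 1036 in FibΔZeb1. The means ran from 1250 ± 496 in fibroblasts and 1175 ± 253 in epithelial wells to 629 ± 109 in B cells and 547 ± 127 in T cells. No neighbors in this order differed by more than the larger SD of the pair.

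Junb, a Jun protein known for restraining the proliferation of myeloid cells, was highest in neutrophils. The 7 plates ranged from 1988 to 7166 with a median of 2951, and the highest value came from FibΔZeb1 replicate 2, which held 18 of the neutrophil wells. T cells followed with 1984 ± 583 and macrophages with 1875 ± 514. Fibroblast wells had 1227 and 713 in FibCtrl and 625, 401 and 622 in FibΔZeb1, and epithelial wells 645 ± 203. All neutrophil and macrophage plates lay above all fibroblast and epithelial plates.

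Jund, a constitutively expressed Jun protein that is not a typical early response gene, showed the narrowest span. Its means ran from 1429 ± 496 in T cells and 1310 ± 215 in B cells through 1177 ± 226 in neutrophils and 917 ± 253 in macrophages to 827 ± 265 in fibroblasts and 755 ± 134 in epithelial wells. Jund was thus the only member whose means were highest in the lymphoid classes. The plates of neighboring classes overlapped throughout. Jun, Junb and Jund each overlap an annotated gene on the opposite strand (Junos, Prdx2 and Gm11175), and whether strand was used in counting was not given in the sources used here, so their levels are uncertain to that extent.

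Atf3, a stress-induced ATF family factor that dimerizes with Jun proteins and often acts as a repressor, separated fibroblasts from epithelial wells. It reached 1166 ± 348 CPM in epithelial wells and 1160 ± 245 in macrophages. Fibroblast wells had 570 and 282 in FibCtrl and 365, 119 and 236 in FibΔZeb1. Epithelial plates ranged from 837.5 to 1792 and macrophage plates from 893.5 to 1499, so neither class overlapped with fibroblasts. B cells, at 162 ± 58.5, and T cells, at 140 ± 77.8, were lowest.

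Egr1, a zinc finger factor induced through serum response factor and the ERK kinases, was highest in neutrophils, with 786 to 2492 CPM on 7 plates and a median of 1827. Fibroblast wells had 1559 and 1330 in FibCtrl and 1003, 635 and 939 in FibΔZeb1, and epithelial wells 831 ± 198. Macrophages varied more, with 307, 1712 and 376 in FibCtrl and 617, 888 and 827 in FibΔZeb1. The high macrophage value belonged to FibCtrl replicate 3. Lymphocytes had 265 ± 105 (B cells) and 190 ± 111 (T cells).

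Egr2, a relative of Egr1 known in myeloid cells and in the control of T cell activation, was the rarest member. Macrophages led with 347 ± 154, followed by neutrophils (168 ± 155), fibroblasts (143 ± 95.1) and epithelial wells (89.2 ± 32.1). Fibroblast wells had 142 and 66.2 in FibCtrl and 304, 83.4 and 118 in FibΔZeb1. In T cells it was at 43.5 ± 30.3, with 0 transcripts on FibΔZeb1 replicate 4, and in B cells at 23.6 ± 20.2. The neutrophil plates spanned 17.0 to 398, and their mean rests on 125 transcripts over 7 plates.

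**Figure D1:**
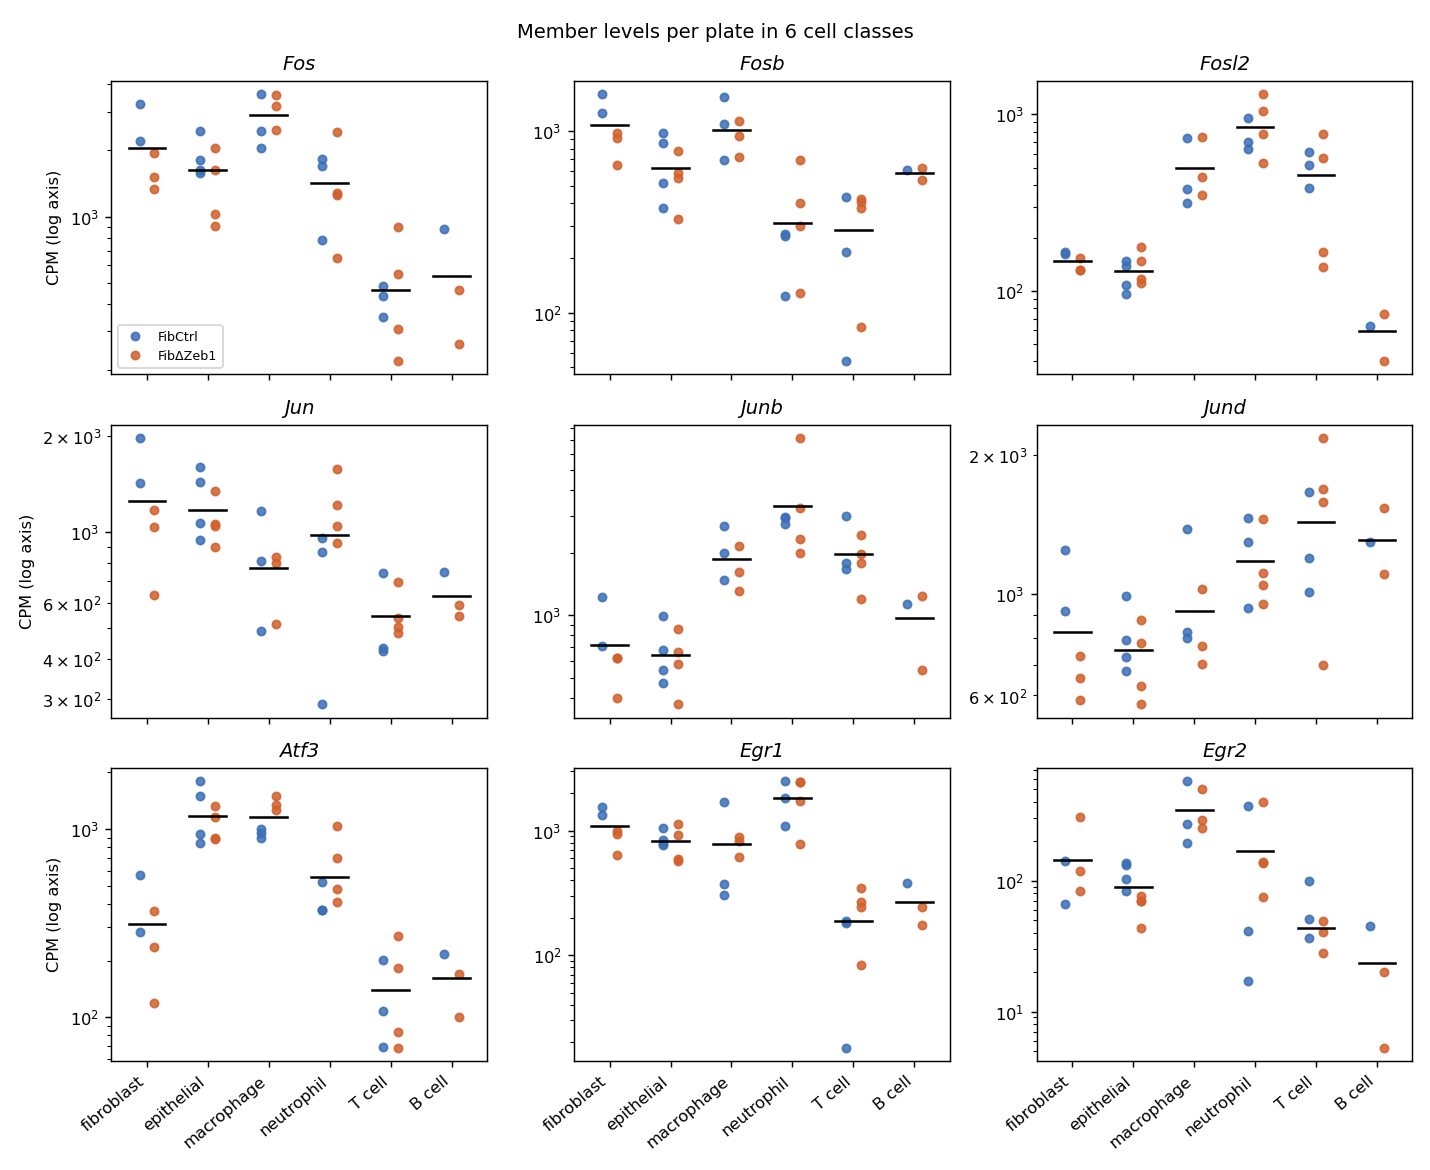
Level of each of the 9 members, in CPM on a log axis, in each class, where a point is a plate (blue FibCtrl, orange FibΔZeb1) and a bar the mean over plates. Fos is highest in macrophages (mean 2883), Junb and Fosl2 in neutrophils (3354 and 847), and Egr2 at 0 in T cells of FibΔZeb1 replicate 4 cannot be drawn on this axis.

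Summed over the 9 members, neutrophils held 10652 ± 2645 and macrophages 10251 ± 1650 CPM, fibroblasts 7623 ± 2548, epithelial wells 7048 ± 1536, T cells 5531 ± 1059 and B cells 4543 ± 745. The classes differed in which paralogs made up this sum. Of the Jun subfamily transcripts in fibroblasts, Jun made up 44.1% ± 4.69 and Junb 25.4% ± 3.24, and epithelial wells were alike with 45.6% ± 3.10 and 24.6% ± 3.59. In neutrophils, by contrast, Jun made up 18.1% ± 6.33 and Junb 58.8% ± 8.65, and in macrophages 21.5% ± 4.05 and 52.5% ± 4.94. No plate of fibroblasts or epithelial wells overlapped with one of neutrophils or macrophages for either share. T cells were again rich in Junb (49.7% ± 8.17), and in B cells Jund took the largest mean share (45.6% ± 11.2).

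The Fos subfamily split along other lines. Fos made up 68.1% ± 7.42 in epithelial wells, 65.4% ± 8.23 in macrophages and 62.2% ± 3.94 in fibroblasts. In neutrophils and T cells Fosl2 took 33.6% ± 10.9 and 37.9% ± 16.5, against 4.81% ± 0.972 in fibroblasts. Fosb made up 52.2% ± 14.2 in B cells, 33.0% ± 3.75 in fibroblasts and 12.3% ± 8.13 in neutrophils. These shares are a description, with no test.

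**Figure D2:**
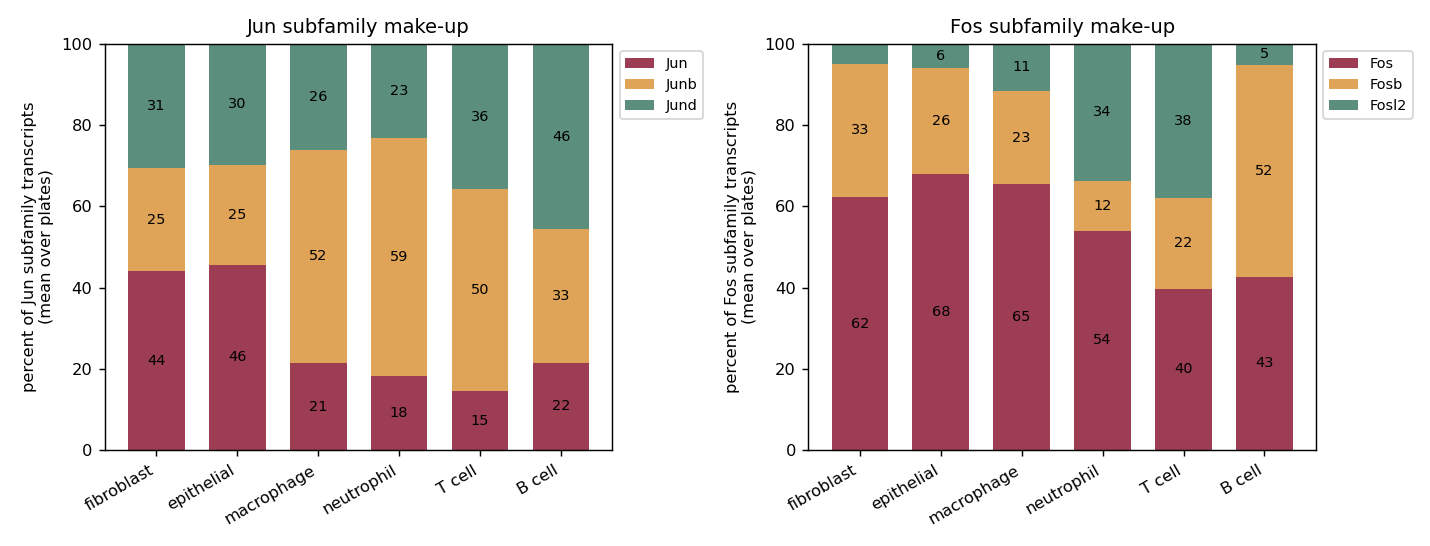
Mean percent over plates of the Jun subfamily transcripts (left) and the Fos subfamily transcripts (right) that each paralog makes up in each class. Junb fills over 45% of the Jun bar in macrophages, neutrophils and T cells and about 25% in fibroblasts and epithelial wells, and Fosl2 is over 30% of the Fos bar in neutrophils and T cells.

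Classes were then compared within plates with edgeR's quasi-likelihood test, with the plate as a term, over 8396 genes and with Benjamini-Hochberg adjustment. Differences are log2 of the first class over the second. Between cell types a large share of all genes is called, so the share of all genes called is given beside each count of members.

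Against epithelial wells, fibroblasts had less Atf3 and more Fosb. The difference was -1.49 (SE 0.25, adjusted p = 3.91e-06) for Atf3 and 1.26 (SE 0.28, adjusted p = 0.000197) for Fosb, and these calls held under all 12 alternatives run. Of the 9 members, 6 were called, against 41.9% of all genes tested. The other calls, Egr1 (0.82), Fos (0.67), Fosl2 (0.65) and Junb (0.61), had adjusted p-values of 0.0385 to 0.0473. With 1 plate left out the adjusted p reached 0.139 for Egr1 (lost without FibCtrl replicate 1, 2 or 4 or FibΔZeb1 replicate 3 or 4), 0.117 for Fos (FibCtrl 1, 3 or 4 or FibΔZeb1 1, 2 or 3), 0.172 for Fosl2 (FibCtrl 1, 2 or 4 or FibΔZeb1 1, 3 or 4) and 0.134 for Junb (any FibCtrl plate or FibΔZeb1 3 or 4), at differences of 0.53 to 0.94. Jun (0.48), Jund (0.51) and Egr2 (0.75) did not pass. The median member difference was 0.65, against -0.11 over all genes tested.

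Against macrophages, fibroblasts had less Atf3, Fosl2, Junb and Egr2 and more Jun. Of the 9 members 5 were called, against 37.4% of all genes. The differences were -1.87 (SE 0.27, adjusted p = 1.09e-07) for Atf3, -1.51 (SE 0.29) for Fosl2 and -1.26 (SE 0.26) for Junb. Egr2 at -1.17 lost its call without FibCtrl replicate 4 or FibΔZeb1 replicate 4 (adjusted p up to 0.0648), and Jun at 0.80 lost it without FibCtrl replicate 1 or 4 (adjusted p up to 0.146). Fos (-0.33), Fosb (0.16), Jund (0.07) and Egr1 (0.66) did not pass. The median over all genes was 0.04, and with DESeq2 size factors in place of TMM scaling it was 0.16, a shift that left all 5 calls in place.

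Against neutrophils, fibroblasts had less Fosl2 (-2.18, SE 0.31) and Junb (-1.95, SE 0.27) and more Fosb (2.12, SE 0.32), with adjusted p-values of 8.60e-08, 9.52e-08 and 3.48e-07. These 3 and Fos made 4 of 9 called, against 48.7% of all genes, which is no larger share than the background. Fos, at 0.68 (adjusted p = 0.0434), was lost without FibCtrl replicate 1, 2 or 4 or FibΔZeb1 replicate 1 or 3, with adjusted p-values up to 0.202. Egr1 (-0.51), Atf3 (-0.60), Egr2 (-0.49), Jun (0.52) and Jund (-0.25) did not pass.

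The lymphoid classes stood further apart. Against T cells 8 of 9 members were called, against 40.3% of all genes, with fibroblasts higher for Egr1 (3.07, SE 0.39), Fos (2.77, SE 0.29), Fosb (2.42, SE 0.31), Egr2 (1.77), Jun (1.74) and Atf3 (1.62) and lower for Fosl2 (-1.09, SE 0.29) and Junb (-0.96, SE 0.26). Jund, at -0.26 (adjusted p = 0.407), did not pass. Against B cells 7 of 9 were called, against 35.1% of all genes, all with fibroblasts higher, from Egr2 (2.64, SE 0.70) and Egr1 (2.55, SE 0.51) to Fosb (1.44, SE 0.40) and Atf3 (1.46, SE 0.37). B cells rested on 3 plates, and without FibCtrl replicate 1 the Fosb call was lost (adjusted p = 0.0781). The median member difference was 1.74 in both comparisons, against 0.09 and 0.04 over all genes tested.

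Between the myeloid classes, macrophages had more Fosb (1.96, SE 0.31), Atf3 (1.28, SE 0.25) and Fos (1.01, SE 0.26) than neutrophils, with adjusted p-values of 3.57e-06, 0.000108 and 0.00335. They had less Egr1 (-1.17, SE 0.35) and Junb (-0.69, SE 0.25). These made 5 of 9 called, against 27.8% of all genes. Egr1 lost its call without FibΔZeb1 replicate 4 (adjusted p = 0.0528), and Junb without FibΔZeb1 replicate 2 or 4 (up to 0.126). Jun (-0.28), Jund (-0.33), Fosl2 (-0.68) and Egr2 (0.69) did not pass.

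Other early response genes were counted from a list written beside the members. Against epithelial wells, 9 of its 17 tested genes were higher in fibroblasts and 3 lower, with the matricellular genes Ctgf (5.27) and Cyr61 (3.72), the prostaglandin synthase gene Ptgs2 (4.05) and the orphan receptor gene Nr4a2 (1.93) among the higher ones and Klf10 (-0.88), Myc (-0.84) and Maff (-0.63) the lower. Against macrophages 3 were higher and 6 lower, and against neutrophils 4 and 8, among them Nfkbia, the inhibitor of NF-κB, at -1.26 and -3.02. Against T cells 8 were higher and 0 lower, and against B cells 10 and 1. In the same order, 41.9%, 37.4%, 48.7%, 40.3% and 35.1% of all genes tested were called in either direction.

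Feedback inhibitors of the pathway, which dephosphorylate MAP kinases, block receptor signaling or destabilize early transcripts, were counted in the same way. Against epithelial wells 5 of 16 tested were higher in fibroblasts, including the phosphatase gene Dusp1 (1.65) and the Egr corepressor gene Nab2 (1.98), and 3 lower, the ERK phosphatase gene Dusp6 (-0.84) with Spry1 (-1.17) and Spry4 (-1.39). Against macrophages 5 were higher and 6 lower, with Spry2 (3.75) and Dusp2 (-4.90) at the ends. Against neutrophils 4 were higher and 8 lower, against T cells 6 and 6, and against B cells 6 and 2. Of all genes tested, 41.9%, 37.4%, 48.7%, 40.3% and 35.1% were called against epithelial wells, macrophages, neutrophils, T cells and B cells. Of 10 tested upstream kinases and factors, 5 were called against epithelial wells, a share near the 41.9% of all genes, with Elk3 (1.86) at the upper end and Mapk3 (-0.72), which encodes ERK1, the one lower. Among 8 tested dimer partners outside the members, 4 were higher in fibroblasts than in epithelial wells and 0 lower. The counts were 0 and 3 against macrophages, 1 and 4 against neutrophils, 3 and 2 against T cells and 2 and 0 against B cells. Batf, an AP-1 factor of leukocytes, was lower in fibroblasts than in macrophages (-4.54), neutrophils (-4.67) and T cells (-6.40).

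Heat shock genes, another stress-induced list, were counted as well. Against epithelial wells 3 of 10 were higher in fibroblasts (Hspa1a 6.95, Hspb1 4.75 and Hspa1b 2.86) and 2 lower, again near the share of all genes, with a list median of -0.17. Against neutrophils 6 of 10 were higher and 0 lower, with a median of 1.09. Of all genes tested 48.7% were called there, 61.9% of these higher in fibroblasts, and the median was 0.35. Macrophages gave 2 higher in fibroblasts and 0 lower (median 0.41), T cells 5 and 0 (0.69) and B cells 4 and 0 (0.75). In the same order 37.4%, 40.3% and 35.1% of all genes were called, with medians of 0.04, 0.09 and 0.04.

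Smaller classes were pooled over plates and have counting intervals only. In the 25 pericyte-like wells Fos reached 3794 CPM (95% exact Poisson interval 3621 to 3973) and the 9 members 11403. In the 11 mast cell-like wells the members summed to 12056, with Egr2 at 730 (550 to 951) and Atf3 at 66.4 (21.6 to 155), but all Egr2 transcripts of these wells came from FibCtrl replicate 3, and the other 2 plates had 0. Fos was 2423 (2325 to 2524) in 34 mesothelial-like wells, 1018 (922 to 1121) in 33 dendritic-like wells and 532 (389 to 709) in 32 NK or innate lymphoid-like wells. With the wells of several mice pooled, these are values of the wells seen.

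The classes were not uniform inside. Fibroblast wells fell into 3 clusters, led by Tnc, Tagln, Col8a1 and Spp1 (86 wells), by Thbs4, Lum, Dcn and C3 (36 wells), and by Ptx3, Pi16, Dpt and Cd34 (30 wells). Fos stood at 1607, 3268 and 2515 CPM in these, Fosb at 786, 1656 and 1342, Egr1 at 859, 1327 and 1597, and Atf3 at 209, 482 and 456. Egr2 ran the other way, at 238, 47.5 and 65.2. Pooled over plates, the cluster led by Tnc thus had the lowest level of 8 members and the highest of Egr2, though the clusters drew on the plates unequally. On the 4 plates with at least 5 wells both of this cluster and of the others, Fos, Fosb and Atf3 were lower in it on 4 plates, Egr1, Fosl2, Junb and Jund on 3 and Jun on 2, and Egr2 was higher in it on all 4.

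Neutrophil clusters also differed. The cluster led by Mmp9 and G0s2 (108 wells) had Egr2 at 490, against 46.5 and 68.3 in those led by Ccl3 and Cxcl3 (75 wells) and by Retnlg and S100a8 (73 wells). Egr1 was at 2028, 2816 and 1035 in the same order, and Jun at 967, 1738 and 604. Junb (2203) and Fosl2 (442) were lowest in the cluster led by Ccl3 and Cxcl3. Of the macrophage clusters, the one led by Alox15, Saa3 and Prg4 had the highest Fos (3755), Fosb (1863) and Egr1 (2290), and 17 of its 23 wells came from FibCtrl replicate 3. Its Egr1 level compares with 518 in the cluster led by C1qa (108 wells) and 974 in the one led by Mmp12 and Arg1 (41 wells).

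**Figure D3:**
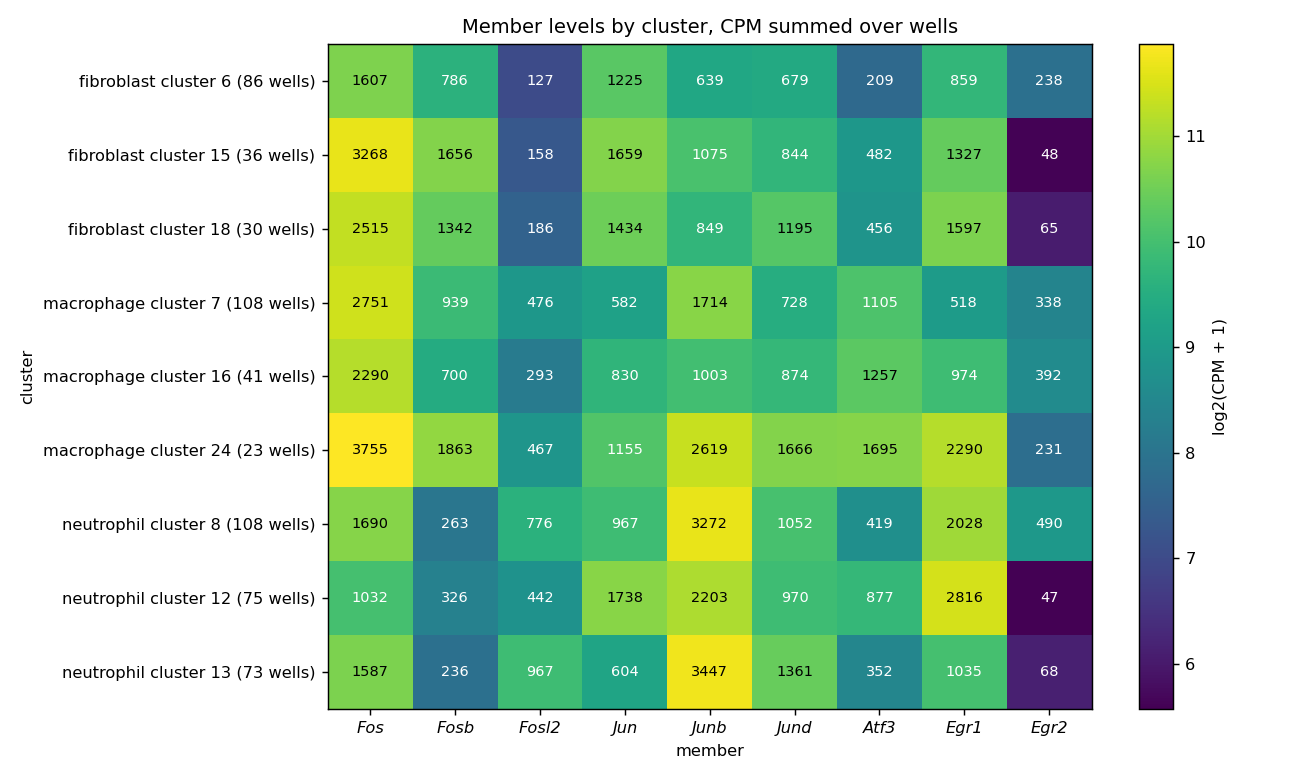
Level of each member in the clusters of 3 classes, in CPM summed over the wells of all plates, with color showing log2 of the level plus 1. Egr2 is over 230 in fibroblast cluster 6 and under 70 in the other fibroblast clusters, and Egr1 peaks at 2816 in neutrophil cluster 12.

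Single wells spread widely around these levels. In fibroblasts Fos had quartiles of 278, 1693 and 3129 CPM, a highest well at 34759 and 20 of 152 wells at 0. In epithelial wells Egr1 had quartiles of 26.6, 435 and 1191, with 92 of 405 wells at 0. To see which members varied together from well to well, wells were thinned to 5000 transcripts and plate means were removed. Over 123 fibroblast wells of the same plates, the Pearson r was 0.76 between Fos and Fosb, 0.69 between Fos and Egr1 and 0.63 between Fos and Jun. Over 368 epithelial wells it was 0.73 for Fos with Egr1 and 0.62 for Atf3 with Egr1. Fosl2 stayed at or below 0.18 with every other member in fibroblasts, and in 118 macrophage wells no pair went above 0.39. Egr2, about as rare as Fosl2 in fibroblasts, had r there from 0.02 (with Atf3) to 0.30 (with Junb). Both genes leave few counts per thinned fibroblast well, which in itself lowers r. Their low values therefore do not show that they vary apart from the other members. Cells of a plate share their handling, so these values describe the wells only.

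**Figure D4:**
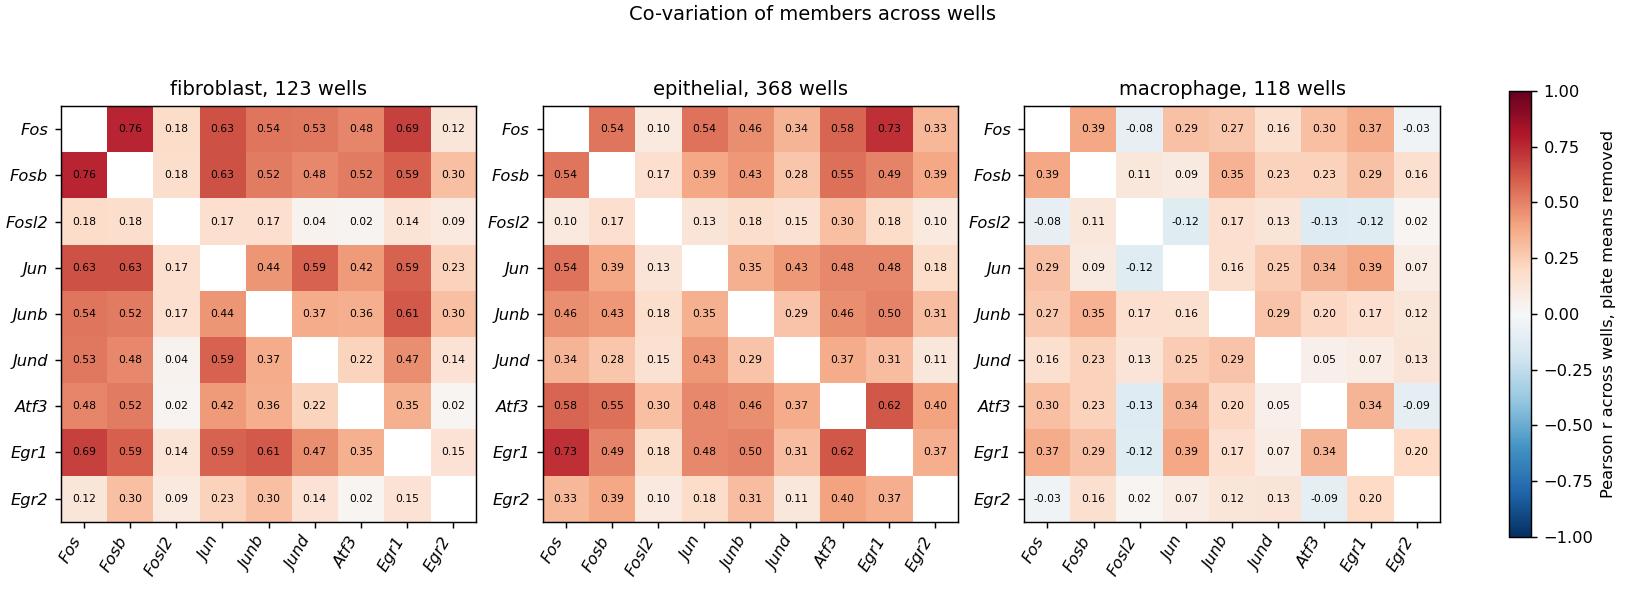
Pearson r between members across wells thinned to 5000 transcripts, with plate means removed, in fibroblast (123), epithelial (368) and macrophage (118) wells. Fos, Fosb, Jun and Egr1 form a block of r from 0.59 to 0.76 in fibroblasts, and the Fosl2 line is pale in all panels. In fibroblast and epithelial wells Fosl2 leaves few counts per thinned well.

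Across the 40 sums per plate and class, each member was also matched with the genes whose level was most like it among 8307 genes, by Pearson r of log2(CPM + 10). These r describe sums that share plates, depth and class. The genes nearest to Fos were App (0.84), Anxa3 (0.81) and Rhob (0.79), and to Fosb Rhoq (0.77) and Pmp22 (0.76). Those nearest to Jun were Amotl1 (0.71), Yap1 (0.70) and Atp8b1 (0.69), whereas Junb was nearest to Samsn1 (0.88), Slfn2 (0.87) and Csrnp1 (0.86). Fosl2 was nearest to Gp49a (0.88), Adam8 (0.87) and Nfkbia (0.85), with Junb at rank 5 (0.84). Atf3 was nearest to Zfand5 (0.87), Stx3 (0.80) and Ctbp2 (0.74), Egr1 to Ifitm2 (0.84), Pdlim7 (0.82) and Cebpd (0.81), Egr2 to Wdfy3 (0.78), Fam20c (0.74) and Lamp1 (0.74), and Jund to Nr3c1 (0.74), Clk1 (0.71) and Akap13 (0.70). Among the members themselves, Fos had r of 0.68 with Egr1 and 0.58 with Fosb but -0.40 with Jund.

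The remaining comparison asks whether deletion of Zeb1 in fibroblasts went with other levels of these genes, in fibroblasts or in the cells around them. Differences are FibΔZeb1 minus FibCtrl on the log2 scale, tested per class with edgeR's quasi-likelihood test and Benjamini-Hochberg adjustment over all genes. In fibroblast wells no member was called, and 1 of 8243 genes was (0.0121%), Aldh1a2 at 3.88 (adjusted p = 0.0430), which was named after its value was seen. A lower level of early response genes in FibΔZeb1 fibroblasts was known from earlier work on these data, so the values below are no independent evidence of that direction.

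From the plates given above, Fos, Fosb, Fosl2, Jun, Junb, Jund and Egr1 were lower on all 3 FibΔZeb1 plates than on both FibCtrl plates, which is 7 of 9 members, against 10.7% of all genes. Atf3 overlapped, and Egr2 overlapped with its highest plate in FibΔZeb1. FibCtrl replicate 3 was left out with 9 fibroblast wells, all in the cluster led by Tnc. Fos measured 1765 CPM there, Fosb 670, Fosl2 82.1, Jun 506, Junb 164, Jund 561 and Egr1 780. Each of these lay below at least 1 FibΔZeb1 plate, so with that plate included the genotypes would overlap for all 9 members. Differences were -0.82 for Fos (SE 0.31, unadjusted p = 0.0310), -0.88 for Jun (SE 0.35), -0.86 for Junb (SE 0.35), -0.79 for Egr1 (SE 0.31), -0.78 for Fosb (SE 0.30), -0.75 for Jund (SE 0.28), -0.87 for Atf3 (SE 0.49), -0.27 for Fosl2 (SE 0.24) and 0.66 for Egr2 (SE 0.58). Below 0 were 8 of 9, against 50.2% of all genes, with a median of -0.79 against -0.0013. The unadjusted p was under 0.05 for 6 members, against 5.97% of all genes, and every adjusted p was 0.804 or more. Within flow cell 1 (1 plate each) Fos differed by -0.75 and Jun by -0.75, and within flow cell 2 (2 against 1) by -0.63 and -0.77.

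The mix of fibroblast clusters also differed between the plates. The cluster led by Tnc made up 44.7% and 23.1% of the fibroblast wells on FibCtrl replicates 1 and 4 and 92.3%, 66.7% and 43.8% on FibΔZeb1 replicates 1, 3 and 4. The genotypes thus overlapped in this share. The share of the cluster led by Ptx3, Pi16, Dpt and Cd34 was 19.1% and 69.2% in FibCtrl, against 3.85%, 5.56% and 6.25% in FibΔZeb1, in the same order of plates. Plates with under 10 fibroblast wells did not follow this order. There the cluster led by Tnc held 50.0% and 100% on FibCtrl replicates 2 and 3 and 83.3% on FibΔZeb1 replicate 2. The cluster led by Ptx3 held 0% on each of these plates. In the cluster led by Tnc alone, on plates with at least 5 of its wells, Fos had 1379, 1765 and 2025 CPM on FibCtrl replicates 1, 3 and 4, and 2012, 2218, 1166 and 788 on FibΔZeb1 replicates 1 to 4. The genotypes overlapped there for all 9 members. Without FibCtrl replicate 3, whose fibroblast wells had no Zeb1 transcript, Jund would not overlap. This comparison and the next were chosen after seeing the data.

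On these 7 plates 0 of 9 members were lower on all FibΔZeb1 plates, against 2.03% of the 2172 genes tested, and the median member difference was -0.06, against -0.0049 over all genes. Fos differed by -0.15 (SE 0.44), Jun by -0.12 (SE 0.63) and Egr1 by -0.34 (SE 0.42), and Atf3 by 1.21 (SE 0.70). No gene was called (0%), with 86 genes at an unadjusted p under 0.05. The plates differed from those of the comparison over all fibroblast wells, since FibCtrl replicate 3 (9 wells) and FibΔZeb1 replicate 2 (5 wells) were added.

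On the same 5 plates as that comparison, Jun, Junb and Jund were also lower on all FibΔZeb1 plates inside the cluster led by Tnc. Jun measured 1646 and 1790 CPM in FibCtrl and 1244, 642 and 404 in FibΔZeb1, and Junb 833 and 1056 against 640, 303 and 404. That made 3 of 9 members, against 8.86% of the 5589 genes tested. Jun differed by -1.17 (SE 0.48), Junb by -1.07 (SE 0.41), Egr1 by -0.68 (SE 0.45), Jund by -0.47 (SE 0.40) and Fos by -0.36 (SE 0.47), with a median over the members of -0.38. The genotypes overlapped for Fos, Fosb, Fosl2, Egr1, Egr2 and Atf3. No gene was called (0%, with 223 at an unadjusted p under 0.05).

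The wells of the other clusters were also pooled per plate. Fos measured 4693 (26 wells) and 2242 (20 wells) on FibCtrl replicates 1 and 4 and 1952 (6 wells) and 1621 (9 wells) on FibΔZeb1 replicates 3 and 4. Fosb measured 2265 and 1305 against 865 and 1171, and Egr1 2126 and 1310 against 840 and 1123. The genotypes did not overlap for these genes or for Fosl2, Jund and Atf3, which is 6 of 9 members, against 34.5% of 6042 genes. They overlapped for Jun, Junb and Egr2, with few wells in FibΔZeb1 and no test.

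Related lists gave the context for the fibroblast wells. Of the other early response genes, 16 of 18 were below 0 (median -0.53), and the sum of the list was 7294 and 9347 CPM in FibCtrl and 3673 to 6978 in FibΔZeb1. Feedback inhibitors had 10 of 15 below 0 (median -0.39). Other AP-1 dimer partners had 5 of 7 below 0 (median -0.06), and upstream kinases and factors 5 of 10 (median -0.13). Of all genes tested 50.2% were below 0. Heat shock genes had 2 of 10 below 0 (median 0.13), with sums of 4355 and 4433 in FibCtrl and 4450 to 5060 in FibΔZeb1. Markers of macrophages summed to 224 and 268 in FibCtrl and 110 to 581 in FibΔZeb1, and those of epithelial cells to 108 and 189 against 85.1 to 136. Mesothelial markers did not overlap, with sums of 93.9 and 137 in FibCtrl and 139 to 320 in FibΔZeb1. The median mitochondrial percent per fibroblast well was 5.74 and 7.89 in FibCtrl and 7.67, 8.86 and 10.97 in FibΔZeb1. The parts of cluster mix, of other cell types, of RNA quality and of handling in the member difference were not tested.

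**Figure D5:**
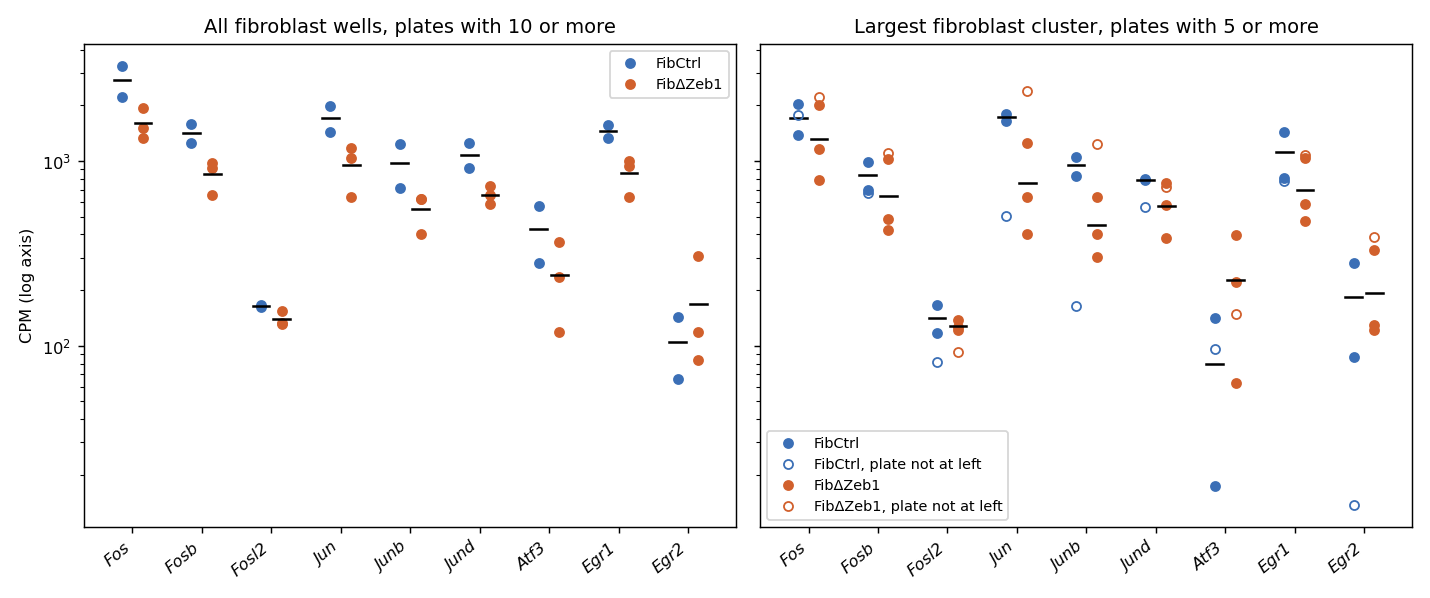
Level of each member, in CPM on a log axis, by genotype in all fibroblast wells (left) and in the cluster led by Tnc alone (right), where a filled point is a plate of the left panel, an open point 1 of the 2 plates added at right, and a bar the mean of the filled points. On the left, with plates of at least 10 wells only, 7 members are lower on all FibΔZeb1 plates. On the right 3 are among the filled points (Jun, Junb and Jund) and 0 among all points.

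In epithelial wells no member was called, as was no other gene of 10340 (0%; 192 had an unadjusted p under 0.05, and DESeq2 called 1). Egr2 measured 137, 83.8, 131 and 103 CPM in FibCtrl and 70.0, 43.6, 75.7 and 69.9 in FibΔZeb1. All 4 FibΔZeb1 plates lay below all 4 FibCtrl plates, as for 0.706% of all genes. The difference was -0.83 (SE 0.22, unadjusted p = 0.00417, adjusted p = 1.0). The flow cells taken singly gave -0.96 (flow cell 1) and -0.69 (flow cell 2). Fos measured 2442, 1815, 1585 and 1622 in FibCtrl and 1636, 902.5, 1023 and 2054 in FibΔZeb1, and these overlapped (-0.42, SE 0.30). The other 7 members also overlapped, between -0.30 and 0.15. In all, 8 of 9 were below 0, against 49.3% of all genes, with a median of -0.23.

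In macrophages no member was called either, and no gene of 4429 was (0%). Atf3 measured 894, 1003 and 950 in FibCtrl and 1348, 1265 and 1499 in FibΔZeb1. The FibΔZeb1 plates all lay above the FibCtrl plates, and in 9.39% of all genes the genotypes did not overlap in either direction. The difference was 0.50 (SE 0.22, unadjusted p = 0.0478, adjusted p = 1.0), with 0.59 and 0.50 within the flow cells. The other 8 members overlapped, from -0.32 for Jund to 0.15 for Fos.

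Neutrophils, T cells and B cells gave no called member among the 8 tested in each, Egr2 being too rare. Called genes made up 0.0942% of those tested in neutrophils (BC018473), 0.0909% in T cells (Stmn1) and 0% in B cells, names given after their values were seen. Differences in neutrophils ran from -0.15 (Jund) to 0.75 (Jun, SE 0.44). In T cells they ran from -0.18 (Junb) to 0.68 (Egr1, SE 0.52). In B cells the lone FibCtrl plate had to be assumed to vary like the 2 FibΔZeb1 plates, so the lack of a call there says little. Fos differed by -1.18 (SE 0.46), at 878 against 464 and 262 CPM, and in 30.9% of all genes both FibΔZeb1 plates were lower.

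Whether the genotype effect differed between fibroblasts and another class was tested as an interaction, and no member passed, against 0.0119%, 0.0119%, 0.0119%, 0% and 0% of genes for epithelial wells, macrophages, neutrophils, T cells and B cells. The lowest adjusted p of a member was 0.840, for Jund in fibroblasts against T cells (-1.05, SE 0.47, edgeR's quasi-likelihood test with Benjamini-Hochberg adjustment). Atf3 in fibroblasts against macrophages differed by -1.38 (SE 0.50, edgeR adjusted p = 0.895). The share of wells with a Fos transcript, after thinning each well to 1000 transcripts, was 75.2% in macrophages, 63.3% in fibroblasts, 56.8% in epithelial wells, 54.9% in neutrophils, 33.2% in B cells and 30.9% in T cells. Unthinned, it was 94.2%, 87.3%, 90.0%, 66.9%, 61.7% and 56.2% in the same order, and 1 to 13 wells per class and genotype were too shallow to thin. No class here is known to lack Fos, so no background share is given. Between genotypes none of 45 exact permutation tests of such shares passed adjustment. With at most 4 plates per genotype, none could have passed, even had every test reached its smallest possible p. The lack of a call in these 45 tests therefore says nothing about genotype. Fos in epithelial wells stood at 47.6% ± 7.85 in FibΔZeb1 against 66.0% ± 14.6 in FibCtrl (two-sided exact permutation p = 0.0571, adjusted p = 0.964). Within same-numbered plates the share was lower in FibΔZeb1 in 4 of 4 pairs for Fos, and likewise for Fosb, Jun and Jund (two-sided exact paired permutation p = 0.125, the smallest that 4 pairs allow). Whether the numbers pair the plates is not established.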

How the data were processed

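Transcripts were counted by SORT-seq in 384 wells on each of 8 plates. Per the labels and methods the authors aligned reads to the GRCm38 transcriptome with BWA and tabulated transcripts per gene and well. The deposited values are estimated counts, made from UMIs with a correction for collisions and without scaling for depth, and 86.3% of the nonzero ones were whole. Spike-in and mitochondrial genes were left out. The labels also list Cell Ranger 2.1.1, whose role is not given in the sources used here.

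Wells with at least 500 transcripts and a mitochondrial share within 3 median absolute deviations of the plate median were kept. The 2000 most variable genes, without members and related lists, gave 20 principal components, 15 neighbors and Leiden clusters at resolution 1.0 (leidenalg 0.10.2, scikit-learn 1.9.0). A cluster was named where its marker score reached 0.5 with at least 3 markers, each in 10% of wells. These limits were set with the data seen. Fibroblast wells with at least 2 Ptprc or Epcam transcripts were removed, and unnamed clusters (384 wells) entered no comparison. No doublet caller was run, since 1 cell was sorted per well. Counts were summed per plate and class with at least 10 wells, rounded, and tested with edgeR 4.0.16 (TMM, expression filter, R 4.3.3) at an adjusted p of 0.05. Class contrasts had the plate as a term. The intervals cover counting error only. The scripts for tests were checked on simulated counts.

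The members, gene lists and tests were chosen with earlier results of these data known. The named genes are all members, the 3 genes most like each (1 of those for Fosb is not reported here), and members of the lists that passed or stand in small counts. Alternatives were DESeq2 1.42.0, its size factors, no filter, a term for flow cell or replicate number, classes by marker sums, at least 5 wells, each plate left out and, chosen after seeing the data, the largest fibroblast cluster alone, on its own plates or on those of the main comparison.

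Replicate numbers were checked as pairs. In epithelial wells the deviations of same-numbered plates correlated at 0.554, 0.284, 0.184 and 0.128. In the other classes checked the values ran from -0.233 (neutrophils, replicate 3) to 0.476 (neutrophils, replicate 4). Differently numbered plates were not set beside them, and same-numbered plates share a flow cell. These values therefore cannot show whether the numbers pair the plates. Replicates 1 and 2 were taken to be on 1 flow cell and 3 and 4 on another, from a code in the names of the deposited count data.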

Additional observations from a re-analysis of the deposited data

Results flagged for a closer look

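Of 36 groups of 4 or more plates (a member in a class and genotype), 1 had a plate set apart from the rest by Dixon's test, where chance alone sets apart about 1 in 20. Fosb in T cell wells of FibΔZeb1 replicate 2 measured 83.7 CPM, against 378 to 424 on the other 3 FibΔZeb1 plates. That plate held 12 T cell wells and 35834 transcripts, so the level rests on few counts.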

How the results depend on the processing

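No member was called by genotype in any class under any alternative (in B cells with a lone FibCtrl plate), and the lowest adjusted p over all of them in fibroblasts was 0.218 (edgeR's test without the expression filter). The count of genes called by genotype did move. In fibroblast wells it was 1, but 323 with no filter, 38 with DESeq2, 17 with the replicate block, 28 with a flow cell term, 0 in the largest cluster alone on its 7 or on the same 5 plates, and 0 to 4 with 1 plate left out (4 without FibCtrl replicate 1 and 0 without any other plate that had fibroblasts). In epithelial wells it was 0, and 1 with DESeq2, and the replicate block changed no other call there. In macrophages it was 0, but 36 with no filter, 1 with DESeq2 and 0 to 1 with 1 plate left out (1 without FibCtrl replicate 4). In neutrophils it was 1, but 20 with no filter and 1 to 6 with 1 plate left out (6 without FibCtrl replicate 2). In T cells it was 1, but 15 with no filter, 2 with DESeq2, 0 with size factors, the replicate block, a flow cell term or marker sum classes, and 0 to 4 with 1 plate left out (4 without FibΔZeb1 replicate 4 and 0 without any other plate). In B cells it was 0, but 27 with size factors, 19 with no filter, 1 with DESeq2 and 5 with marker sum classes, and with 1 FibCtrl plate no block or left-out plate could be run. Between classes, fibroblasts against epithelial wells gave 3514 genes, but 5375 with no filter and 2238 with marker sum classes. Marker sum classes gave 2081 in place of 3139 against macrophages and 2089 in place of 3380 against T cells, and 1 plate left out gave 1923 to 3027 in place of 2951 against B cells (1923 without FibCtrl replicate 1). The interaction gave 3 genes over its contrasts, and 5 with marker sum classes. Among members, some differences not called turned sign. By genotype in fibroblasts Atf3 was 1.21 in the largest cluster, or 1.31 on the same 5 plates. With 1 plate left out, the genotype difference ran from -0.11 to 1.35 for Egr2 in fibroblasts (below 0 without FibΔZeb1 replicate 1), from -0.34 to 0.060 for Egr1 in epithelial wells (above 0 without FibCtrl 1, FibΔZeb1 2 or FibΔZeb1 3) and from -0.33 to 0.12 for Junb there (above 0 without FibCtrl 1 or FibΔZeb1 3), and fibroblasts against macrophages gave -0.15 to 0.43 for Fosb and -0.23 to 0.20 for Jund, both below 0 without FibCtrl replicate 1 or 4. With marker sum classes Jund was 0.25 against T cells and 0.19 against B cells, and Jun 0.053 in macrophages against neutrophils. Of the 35 member calls between classes, 21 held under all 12 alternatives, 14 were lost in at least 1 and 0 changed sign. Marker sum classes lost the calls of Fos, Fosl2 and Junb in fibroblasts against epithelial wells, of Egr2, Fosl2 and Junb against T cells, of Egr2 against B cells and of Egr1 and Junb in macrophages against neutrophils. DESeq2 lost Egr1 against epithelial wells and Fos against neutrophils, and the absence of a filter lost Fosl2 against epithelial wells. The causes were not tested. Neutrophils were shallow, with 40050 to 139600 transcripts per plate.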
